A study of Mus musculus with 52 samples.

Results

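The comparison described here set the mouse embryonic stem (ES) cell line ZFCUMNT directly against the ES line #4 (B6). It consists of the 4 arrays whose titles name this pair, out of 52 arrays in the series, and the members were taken by those titles. The series set 7 ES lines against each other in 13 pairwise comparisons of 4 arrays each, on two-colour cDNA arrays that hold total RNA of 1 line in each channel. Its stated question concerns ES lines from different sources of donor nuclei, among them lines from cumulus cells, the somatic cells around the egg, made by different cloning methods. The labels give the lines by name alone, with no genotype, treatment, passage or sex, and they do not spell out NT, PGA, PD, ZF, CUM or B6. On arrays 1 and 2 ZFCUMNT was labelled with Cy5 and #4 (B6) with Cy3, and on arrays 3 and 4 the dyes were swapped. The protocol text mentions organs and pooled control animals, but both channels of each array are labelled as ES lines, and that was followed. Each name may stand for 1 clone, and nothing in the labels says that the 4 arrays came from separate cultures, so p-values here measure only the spread between hybridisations, which may be technical.

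ES cells are kept in an undifferentiated state by a network of transcription factors around Pou5f1 (Oct4), Sox2 and Nanog, supported by Klf4, Esrrb, Tbx3 and Sall4. In lines made by nuclear transfer the nucleus of a somatic cell is reset in an egg, and the blastocyst that forms gives rise to ES cells. Cultures of ES cells are often grown on feeder fibroblasts, whose transcripts, such as those for vimentin and collagens, can be part of the RNA that is measured. Dppa5a, a KH-domain RNA-binding protein, is a marker of pluripotent cells and of the germ line.

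The deposited values are log2 ratios of the 2 channels. Each was turned by its dye labels to ZFCUMNT minus #4 (B6), so that a positive value is higher in ZFCUMNT if the deposited ratio is Cy5 over Cy3. The dye in the numerator is not stated in the sources used here, and if it is Cy3 every sign below turns at once, so the values are called positive or negative. Probes of a gene were averaged, and a gene or an unnamed probe (a feature) was tested where at least 3 of the 4 arrays measured it in both dye orientations. The ratios give no level in either line, so the presence of ES cells or of any other cell type could not be read from them.

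Of 15716 features tested, 153 (0.974%) passed the threshold of 0.05 on the adjusted p of limma, 105 with a positive value (0.668%) and 48 with a negative value (0.305%). Of these, 77 had a gene symbol, 52 positive and 25 negative, and 76 were unnamed probes. The median log2 ratio over all features was 0.076, and 2153 features (13.7%) had an unadjusted p under 0.05. With each array's median subtracted the count was 181, and the split was 105 positive and 76 negative. The 4 arrays did not carry equal weight in this count. Without array 1 it was 43, without array 2 it was 72, without array 3 it was 403 and without array 4 it was 366. Other settings ended most calls. The count was 27 with arrays scaled to equal spread, 44 with array weights (22 positive and 22 negative), 59 with 1 effect per line fitted over all comparisons (36 positive and 23 negative) and 0 when the 4 arrays were fitted on their own with limma, where 1784 features had an unadjusted p under 0.05.

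The arrays themselves differed in spread. The interquartile range of the log2 ratios of all probes was 1.66 on array 1, 1.36 on array 2, 0.94 on array 3 and 1.20 on array 4. Array 1 had the widest of the 52 arrays, and the widest outside this comparison was 1.54. Errors and p-values of the joint fit rest on a spread per feature estimated over all 52 arrays. They do not measure the spread of these 4 arrays alone. After turning, arrays with the same dye orientation had a Spearman correlation across features of 0.279 (arrays 1 and 2) and 0.280 (arrays 3 and 4), whereas the pairs of opposite orientation ran from -0.0754 to -0.0343. These correlations are across features of single arrays, which are not independent replicates. Between 17870 and 19333 of 20794 probes had a value on the 4 arrays, of which 67 to 125 per array stood at a constant top value and were dropped.

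**Figure D1:**
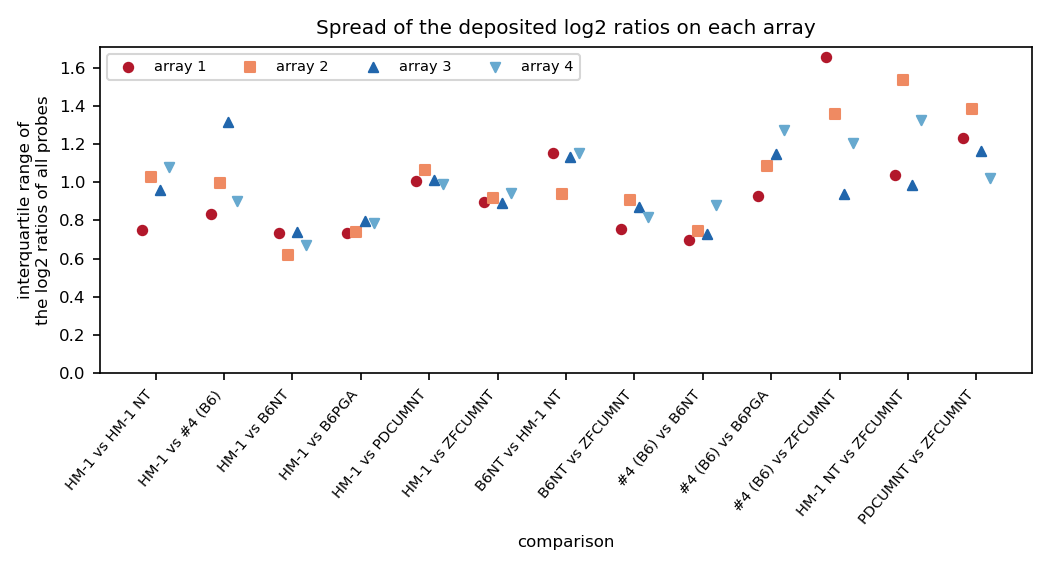
Interquartile range of the log2 ratios of all probes (y axis) on each of the 52 arrays, grouped by comparison (x axis), with a marker for each array number. The 4 arrays of #4 (B6) vs ZFCUMNT run from 0.94 to 1.66, and its array 1 is the widest in the series.

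Dppa5a, on chromosome 9, had the smallest p of all features tested. Its log2 ratio was 3.23 on array 1, 2.63 on array 2, 1.20 on array 3 and 1.09 on array 4. All 4 arrays were positive, with larger values on the arrays where ZFCUMNT carried Cy5. The fitted log2 ratio was 2.04 ± 0.20 (SE of the joint fit), or 4.1-fold, with an adjusted p of 1.2e-08. The call held without each array in turn (log2 1.80 to 2.19). It also held on arrays 1 and 2 alone (2.47) and on arrays 3 and 4 alone (1.60, adjusted p 0.0023). The RefSeq gene table lists the pseudogenes Dppa5b and Dppa5c on the same chromosome, and a cDNA probe may pick up related transcripts.

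The other regulators of the pluripotent state that were measured had mostly positive values that did not pass. Pou5f1, the central POU-domain factor, was 1.09, 0.60, 0.55 and 0.41 on arrays 1 to 4. All 4 arrays were above 0, and the fitted value was 0.66 ± 0.22 (adjusted p 0.12). Klf4, a Krüppel-like factor of the naive state, was 0.82, 0.74, 0.84 and -0.01, so that array 4 alone was at 0. Its fitted value was 0.60 ± 0.18 (adjusted p 0.095), and without array 4 it was 0.78 and passed (adjusted p 0.028). Sall1, a zinc-finger repressor, was measured on 3 arrays at 2.30, 1.33 and -0.13, with a fitted value of 1.06 ± 0.41 (adjusted p 0.21). Esrrb, an orphan nuclear receptor, was 2.41 and 2.16 on arrays 1 and 2 and -1.10 on array 3, so the dye orientations disagreed in sign, and its fitted value of 1.14 ± 0.55 did not pass (adjusted p 0.34). Jarid2, a partner of Polycomb complex PRC2, was positive on all 4 arrays (0.99, 0.43, 0.10 and 0.50) with a fitted value of 0.50 ± 0.21 (adjusted p 0.26). With 1 effect per line, a fit that also draws on the other comparisons, Pou5f1 (0.63, adjusted p 0.014), Klf4 (0.55, adjusted p 0.011) and Sall1 (1.29, adjusted p 0.015) passed. Esrrb was -1.15 on arrays 3 and 4 alone, and on arrays 1 and 2 alone it was 2.33 and passed (adjusted p 0.013).

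Several further factors lay close to 0 or had wide errors. Sox2 had a fitted value of 0.37 ± 0.45, Klf5 of 0.51 ± 0.36 and Dppa3, a maternal factor that protects DNA methylation, of 0.45 ± 0.35. Utf1 had 0.73 ± 0.42, Fgf4, the growth factor that primes ES cells for differentiation, 0.70 ± 0.37, and Dnmt3l, a cofactor of the de novo DNA methyltransferases, 0.48 ± 0.42. Sall4 (0.00 ± 0.22), Trim28 (0.01 ± 0.23), Dppa4 (-0.19 ± 0.24) and Klf2 (-0.49 ± 1.29, 3 arrays) were not positive beyond their errors. None of these passed the threshold, and their adjusted p ran from 0.41 upwards. Zfp42 was measured on 2 of the 4 arrays and not tested, and for Nanog, Nodal, Dnmt3b and Tdgf1 no probe was found under the symbol.

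Over the list of pluripotency and naive-state genes, 25 of 34 were tested, 1 passed (Dppa5a, positive, 4% of the list) and none passed as negative. Over all 8424 genes tested, 0.914% passed, 52 positive and 25 negative, and this is the share against which each list's count below stands. Positive values were found for 20 of the 25, with a median log2 ratio of 0.50, against a median of 0.09 over all genes tested, of which 4836 were positive. The list's median was 0.51, 0.60, 0.22 and 0.44 on arrays 1 to 4, and over all genes it was 0.40, 0.24, -0.14 and -0.13. With array medians subtracted the list's median was 0.42. The Nodal, BMP and primed epiblast list had 11 members tested, none called, and a median of 0.19. Lefty1, a secreted Nodal antagonist, had -1.17, -1.67, -0.34 and 0.05 on arrays 1 to 4 and a fitted value of -0.78 ± 0.44 (adjusted p 0.44). Its values on arrays 1 and 2 came from a single probe, which alone was 0.054 and -0.647 on arrays 3 and 4. Tested singly that probe had -0.86 ± 0.32 and did not pass (adjusted p 0.18). Lefty2, the neighbour of Lefty1 on chromosome 1, had -0.59, -0.62, 0.54 and -0.10, with both signs present and a fitted value of -0.19 ± 0.25 (adjusted p 0.81).

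**Figure D2:**
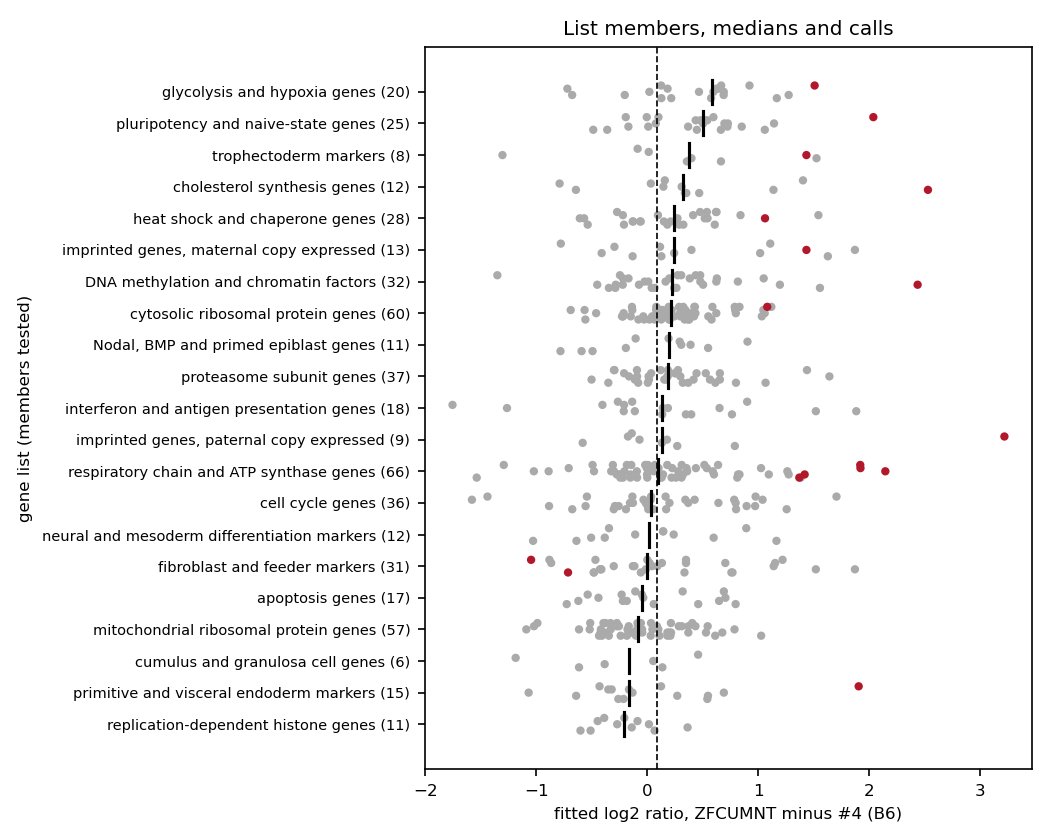
Fitted log2 ratios (x axis) of the tested members of each gene list (y axis, number tested in brackets); red points passed the adjusted p threshold, grey points did not, black bars are list medians and the dashed line is the median of all genes tested (0.09). The pluripotency list has a median of 0.50 with Dppa5a as its only red point, and the fibroblast list has a median of 0.00 with Vim and Timp3 in red on the negative side.

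On the negative side, Vim, which encodes the intermediate filament vimentin of mesenchymal cells, was -0.65, -0.93, -1.44 and -1.17 on arrays 1 to 4. All 4 arrays were negative, with the lower values on arrays 3 and 4, where ZFCUMNT carried Cy3. The fitted value was -1.05 ± 0.21 (adjusted p 0.0065), and both of its probes were negative (-1.09 and -1.003). Timp3, an inhibitor of matrix metalloproteinases, was -0.13, -0.68, -1.25 and -0.80, with a fitted value of -0.71 ± 0.19 (adjusted p 0.048). Timp3 lay at the threshold, and its call was lost without any 1 of the 4 arrays (adjusted p 0.071, 0.16, 0.13 and 0.054). Of its 4 probes, 3 were negative (-0.64, -1.18 and -1.35) and 1 was positive (0.31). Igfbp3, a secreted binding protein of insulin-like growth factors, was -2.49, -1.11, -1.95 and -0.53, negative on all 4 arrays, with a fitted value of -1.52 ± 0.32 (adjusted p 0.01). Without array 1 Igfbp3 had -1.26 and did not pass (adjusted p 0.13).

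Vim and Timp3 belong to the list of fibroblast and feeder markers, of which no other member passed. Of 31 members tested, 2 were called (6.45%, against 0.914% of all genes tested), both negative, 15 had positive and 16 had negative or zero values, and the median was 0.00 against 0.09 over all genes tested. The collagens Col1a1 (-0.48 ± 0.24), Col1a2 (0.04 ± 0.26) and Col3a1 (-0.42 ± 0.25) did not pass, nor did fibronectin, Fn1 (-0.01 ± 0.25), or Thy1, a surface marker of fibroblasts (0.76 ± 0.29). Dcn, which encodes the matrix proteoglycan decorin, had 1.87 ± 0.65 (adjusted p 0.15). Anxa1, a phospholipid-binding protein, had -0.88 ± 0.25 (adjusted p 0.065). In bulk RNA fewer cells of a type and less RNA per cell cannot be told apart, and the part of feeder cells in the values of Vim and Timp3 was not tested.

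Hspb1, a small heat shock protein, was 1.65, 1.54, 0.92 and 0.13 on arrays 1 to 4. All 4 were positive, with array 4 the lowest, and the fitted value was 1.06 ± 0.21 (2.09-fold, adjusted p 0.0056). Without array 1 it was 0.98 and did not pass (adjusted p 0.067). Of the 28 heat shock and chaperone genes tested, Hspb1 was the only one called (3.57%, against 0.914% of all genes tested), and the list's median was 0.24, against 0.09 over all genes. Hspa5, the endoplasmic reticulum chaperone BiP, had 1.54 ± 0.72 (adjusted p 0.33), and Hsp90aa1, a cytosolic chaperone, had 0.10 ± 0.30.

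The bases before the annotated start of Vim, Timp3 and Hspb1 are printed because Vim and Timp3 were the called fibroblast markers and Hspb1 the called chaperone. Of 4 genes looked up, Dppa5a included, these 3 matched. They come from RefSeq's GRCm38.p6 and show the 250 bases upstream, 5′ to 3′ on the gene's strand, which is the plus strand for all 3. The windows are chr2:13574061-13574310 for Vim, chr10:86300162-86300411 for Timp3 and chr5:135887669-135887918 for Hspb1. Capitals mark matches to 5 motifs searched on both strands, and no matches overlapped. The TATA motif was searched as TATAAA. The CCAAT box was searched as these 5 letters. The GC box was searched as GGGCGG. The core of a heat shock element was searched as GAANNTTC. The octamer motif was searched as ATTTGCAT.
Vim: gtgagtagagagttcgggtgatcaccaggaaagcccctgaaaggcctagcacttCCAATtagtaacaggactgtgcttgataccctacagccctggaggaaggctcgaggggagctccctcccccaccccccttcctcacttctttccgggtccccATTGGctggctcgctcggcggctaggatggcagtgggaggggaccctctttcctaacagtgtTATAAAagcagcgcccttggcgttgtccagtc
Timp3: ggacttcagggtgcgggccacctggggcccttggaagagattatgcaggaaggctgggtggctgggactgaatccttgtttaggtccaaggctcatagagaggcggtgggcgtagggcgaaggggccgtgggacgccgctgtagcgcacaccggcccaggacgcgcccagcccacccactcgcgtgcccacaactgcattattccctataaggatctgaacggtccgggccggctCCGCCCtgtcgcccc
Hspb1: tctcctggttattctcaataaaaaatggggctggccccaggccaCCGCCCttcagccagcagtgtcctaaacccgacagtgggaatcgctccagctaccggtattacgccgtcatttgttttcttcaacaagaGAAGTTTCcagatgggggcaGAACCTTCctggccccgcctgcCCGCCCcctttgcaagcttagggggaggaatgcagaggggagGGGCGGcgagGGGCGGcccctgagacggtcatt
The Vim window held a TATA motif 32 to 27 bases before the start and a CCAAT box on each strand. The Hspb1 window held 4 GC boxes and 2 heat shock element cores, 117 to 110 and 97 to 90 bases before the start. The Timp3 window held 1 GC box. Among the 27025 upstream windows of the same length in the table, 13% held the TATA motif, 34.5% the CCAAT box, 32.9% the GC box, 6.78% the heat shock element core and 1.61% the octamer. A match describes the letters of the window and is no evidence of binding.

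The largest positive values with 1 sign on every measured array came from genes with a wide spread between arrays. Spata2l, a relative of a deubiquitinase adaptor, was 7.26, 5.81 and 1.65 on arrays 1, 2 and 4, with a fitted value of 4.83 ± 0.76 (adjusted p 0.00061). Array 4 was the lowest, and without array 1 the call was lost (adjusted p 0.054). Hmbox1, a homeobox protein that binds telomeric DNA, was 4.74, 5.75 and 2.56 on the same arrays (4.20 ± 0.79, adjusted p 0.0088). Irx3, a homeobox transcription factor of the Iroquois family, was 5.04, 6.64 and 1.61 (4.16 ± 0.95, adjusted p 0.034). All 3 genes were lowest on array 4 and had no value on array 3. Hmbox1 and Irx3 also lost their calls without array 1 (adjusted p 0.081 and 0.15) and without array 2 (0.095 and 0.21).

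Uhrf1 and Timeless, which act at replicating DNA, were among the positive calls. Uhrf1, which brings the maintenance methyltransferase Dnmt1 to newly copied DNA, was 2.24, 0.89 and 3.91 on arrays 1, 3 and 4. The values were positive in both dye orientations, with array 3 the lowest. Its fitted value was 2.44 ± 0.45 (5.41-fold, adjusted p 0.0023), and without array 4 it was 1.56 and did not pass (adjusted p 0.082). Timeless, a component of the replication fork protection complex, was 4.02, 2.23, 0.41 and 1.61, positive throughout but lowest on array 3 (2.07 ± 0.38, adjusted p 0.0024). Without array 1 it was 1.45 and did not pass (adjusted p 0.11). In the list of DNA methylation and chromatin factors, Uhrf1 was the only one of 32 called (3.12%, against 0.914% of all genes tested), and the median was 0.22, against 0.09 over all genes. Dnmt1 had 0.24 ± 0.15 and Dnmt3a, a de novo methyltransferase, 0.38 ± 0.32, neither of which passed.

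The remaining positive genes of the most extreme 12 had fitted log2 ratios from 2.08 to 3.51. They were Mtfp1 (3.51 ± 0.86), a mitochondrial fission protein, Trmt2b (2.92 ± 0.76), a tRNA methyltransferase, Gart (2.71 ± 0.55), an enzyme of purine synthesis, Ddit4 (2.46 ± 0.46), a stress-induced inhibitor of mTORC1, Plcb3 (2.28 ± 0.40), a phospholipase C, Atp5md (2.15 ± 0.50), a subunit of ATP synthase, and Pcyt1a (2.08 ± 0.47), an enzyme of phosphatidylcholine synthesis. Their adjusted p ran from 0.0016 to 0.047. Gart was 6.89 on array 1 and 1.99, 1.22 and 0.76 on the others, so that a single array stood above the rest, and without it the value was 1.29 and did not pass (adjusted p 0.27). Pcyt1a was 5.51 on array 2 and between 0.12 and 2.06 elsewhere, and without array 2 it had 0.97 (adjusted p 0.35). Trmt2b, measured on 3 arrays, had 1.47 without array 3 and did not pass (adjusted p 0.41). Mtfp1 did not pass without array 1, 2 or 4 (adjusted p 0.088, 0.13 and 0.12), Ddit4 without array 2 (0.062) and Plcb3 without array 1 (0.073).

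Values that differed between dye orientations were common among the positive calls, and to a smaller extent over all features. Over the 52 called positive genes, the median was 2.91 on arrays 1 and 2 and 0.67 on arrays 3 and 4. Of the 52, 45 had the larger absolute mean, whatever its sign, on arrays 1 and 2. Over the 25 called negative genes the medians were -1.58 and -1.29, and 12 of the 25 had the larger absolute mean on arrays 1 and 2. Over all 15716 features the medians were 0.34 and -0.15, and 9612 had the larger absolute mean on arrays 1 and 2. Of the 153 called features, 117 had the same sign on every measured array, as did 2856 of all 15716. These values chose the calls and are given as a description. Of the 38 calls named here, Dppa5a, Vim, Btf3 and Ascl2 passed without each of the 4 arrays in turn, and 31 lost the call in at least 1 fit. The remaining 3, Aamdc, Apoe and Ldha, were measured on 3 arrays, and the fit without their most extreme array could not be made, so leaving out arrays does not bear on these calls. On arrays 3 and 4 alone Aamdc had -0.66 (adjusted p 1) and Apoe 1.13 (adjusted p 0.52). Of the named calls measured on the array left out and still testable, 7 of 33 were kept without array 1, 14 of 33 without array 2, 28 of 33 without array 3 and 27 of 33 without array 4.

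**Figure D3:**
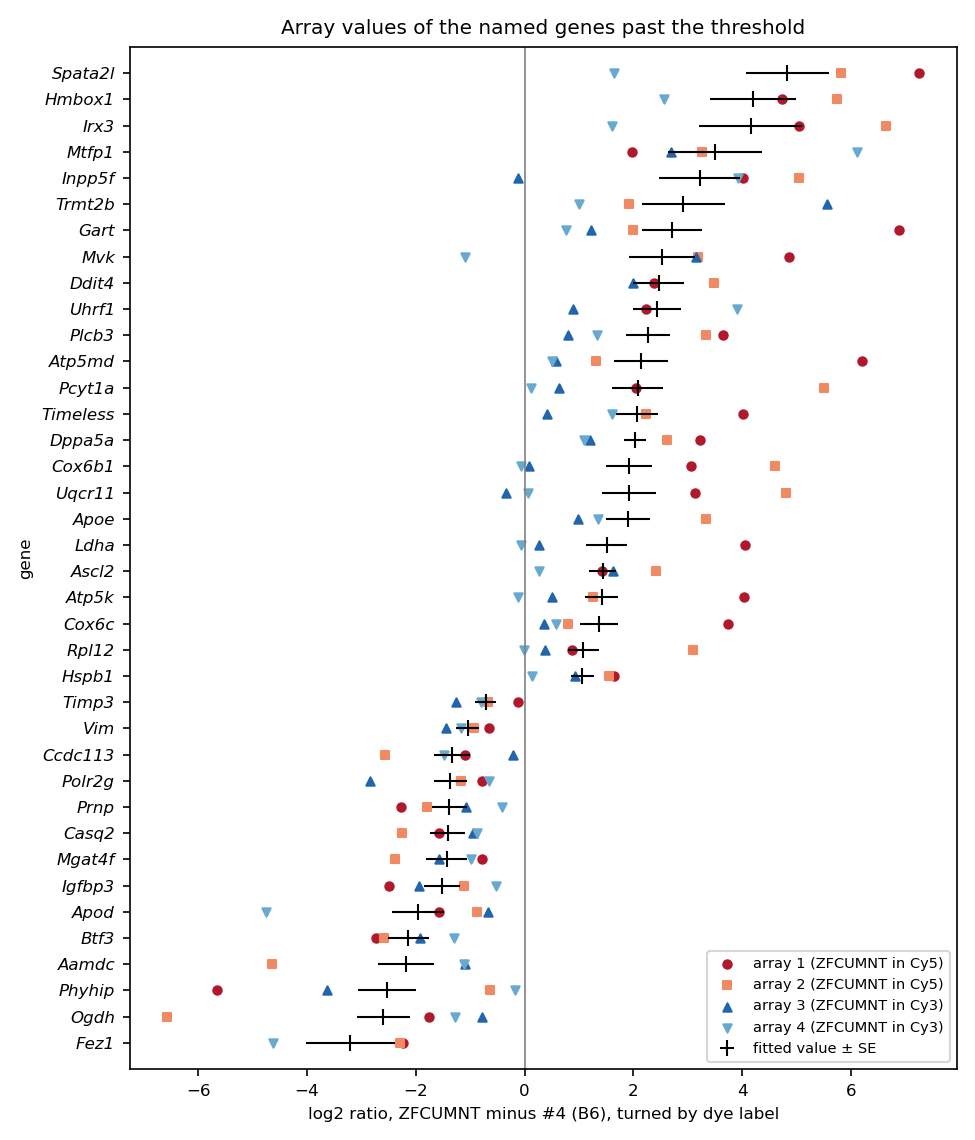
Turned log2 ratios (x axis) on arrays 1 to 4 for the 38 named genes that passed the threshold (y axis), with the fitted value and its SE in black; red and orange markers are arrays with ZFCUMNT in Cy5, blue markers those with it in Cy3. Dppa5a, Vim and Btf3 have the same sign on all 4 arrays, whereas Cox6b1 and Uqcr11 are high on arrays with ZFCUMNT in Cy5 and near 0 on the others. Ldha is high on array 1, has no value on array 2 and is near 0 on arrays 3 and 4.

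Of 66 tested genes of the respiratory chain and ATP synthase, 5 were called (7.58%, against 0.914% of all genes tested), all positive, while the list's median was 0.10, close to the 0.09 of all genes tested. The list's medians on arrays 1 to 4 were 0.32, 0.49, -0.04 and -0.10, and those of all genes were 0.40, 0.24, -0.14 and -0.13. Atp5md was 6.19, 1.31, 0.58 and 0.50 on arrays 1 to 4, and Atp5k, another ATP synthase subunit, was 4.03, 1.26, 0.51 and -0.13 (1.42 ± 0.31, adjusted p 0.012). Cox6c, a cytochrome c oxidase subunit, was 3.74, 0.80, 0.36 and 0.59 (1.37 ± 0.34, adjusted p 0.035). In these 3 genes array 1 was the highest by more than 2 log2 units, and without it the values were 0.73 for Atp5md, 0.59 for Atp5k and 0.57 for Cox6c, none of which passed (adjusted p 0.54, 0.4 and 0.61). Cox6b1, also of cytochrome c oxidase, was 3.06, 4.60, 0.09 and -0.06 (1.92 ± 0.43, adjusted p 0.016). The values on arrays 1 and 2 each came from a single probe, a different one on each, and tested singly neither probe of Cox6b1 passed (adjusted p 0.34 and 0.15). Uqcr11, of the cytochrome bc1 complex, was 3.13, 4.81, -0.33 and 0.07 (1.92 ± 0.49, adjusted p 0.043). Both were near 0 on arrays 3 and 4, and there alone their fitted values were -0.03 for Cox6b1 and -0.23 for Uqcr11. Neither call held without array 1 (1.57 and 1.53) or without array 2 (1.04 and 0.95).

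Ldha, lactate dehydrogenase A, was 4.06 on array 1, 0.26 on array 3 and -0.06 on array 4 (1.51 ± 0.38, adjusted p 0.038), so array 1 alone was far from 0, and without it Ldha could not be tested. Among 20 glycolysis and hypoxia genes tested Ldha alone was called (5%), 17 values were positive and the median was 0.59. That median was 1.02 and 0.89 on arrays 1 and 2 and -0.10 and -0.06 on arrays 3 and 4. Mvk, mevalonate kinase of cholesterol synthesis, was 4.86, 3.19, 3.15 and -1.09 (2.53 ± 0.60, adjusted p 0.027), with a call lost without array 1, 2 or 3 (adjusted p 0.27, 0.11 and 0.083), and its list had 1 of 12 members called (8.33%) and a median of 0.33. Of 60 cytosolic ribosomal protein genes, Rpl12 alone was called (1.67%, against 0.914% of all genes tested), at 0.87, 3.09, 0.38 and -0.01 (1.08 ± 0.28, adjusted p 0.044), and the list's median was 0.21. Without array 2 Rpl12 had 0.46 (adjusted p 0.54). The 57 mitochondrial ribosomal protein genes and the 37 proteasome genes had no calls, with medians of -0.09 and 0.18.

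Imprinted genes and lineage markers gave single calls. Ascl2, a trophoblast transcription factor that is imprinted with expression of the maternal copy, was 1.42, 2.42, 1.63 and 0.26, positive on all 4 arrays (1.43 ± 0.25, 2.7-fold, adjusted p 0.0016). Its call held without each array in turn (log2 1.14 to 1.79). It was the only call among 13 imprinted genes expressed from the maternal copy (7.69%, median 0.24) and among 8 trophectoderm markers (12.5%, median 0.38), where 0.914% of all genes tested were called and their median was 0.09. With 1 effect per line Ascl2 was 0.75 (adjusted p 0.038). Cdx2, a defining trophectoderm factor, had 0.36 ± 0.28 and Krt8, an epithelial keratin, -0.09 ± 0.43. Inpp5f, an inositol phosphatase with an imprinted isoform, was 4.02, 5.05, -0.13 and 3.92, with array 3 alone at 0 (3.22 ± 0.74, adjusted p 0.024), and the call was lost without array 1, 2 or 4 (adjusted p 0.14, 0.17 and 0.065). The probe was matched by the gene's symbol alone, so the imprinted isoform was not measured on its own. No other gene was called of the 9 tested on the list of genes expressed from the paternal copy, on which Inpp5f stands (median 0.13), and Igf2, a fetal growth factor, had 0.79 ± 0.33 (adjusted p 0.26). Apoe, an apolipoprotein made by visceral endoderm among other cells, was 3.34, 0.98 and 1.36 on arrays 2 to 4 (1.91 ± 0.41, adjusted p 0.012). It was the only call among 15 endoderm markers (6.67%), whose median was -0.17, and the endoderm factor Gata6 had 0.54 ± 0.55 (adjusted p 0.75).

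Lists without any call were those of cumulus and granulosa cell genes (6 tested, median -0.17), neural and mesoderm differentiation markers (12, 0.02), interferon and antigen presentation genes (18, 0.14), cell cycle genes (36, 0.03), apoptosis genes (17, -0.05) and replication-dependent histone genes (11, -0.21). The donor nuclei of some lines came from cumulus cells. Of the 6 cumulus genes tested, 3 had positive and 3 had negative values. The most negative was Inhba, the inhibin beta A subunit (-1.19 ± 0.61, adjusted p 0.39), and the most positive was Kitl (0.458 ± 0.665, adjusted p 0.85).

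The most negative genes with 1 sign on every measured array were led by Fez1, a neuronal transport adaptor, at -2.23, -2.30 and -4.63 on arrays 1, 2 and 4 (-3.20 ± 0.82, adjusted p 0.042), which did not pass without array 1 (0.13) or array 2 (0.11). Ogdh, a subunit of the 2-oxoglutarate dehydrogenase complex of the citric acid cycle, was -1.76, -6.57, -0.78 and -1.29 (-2.60 ± 0.49, adjusted p 0.0024). Array 2 stood far below the others, and without it Ogdh had -1.17 and did not pass (adjusted p 0.12). Btf3, a subunit of the nascent polypeptide-associated complex, was -2.74, -2.58, -1.93 and -1.29. Its arrays lay within 1.5 log2 units of each other, its fitted value was -2.13 ± 0.37 (4.39-fold, adjusted p 0.0015), and the call held without each array in turn (-2.36 to -1.99). With 1 effect per line, which also draws on the other comparisons, Btf3 was -0.48 and did not pass (adjusted p 0.67). Prnp, the prion protein, was -2.27, -1.78, -1.08 and -0.41 (-1.38 ± 0.32, adjusted p 0.019), and did not pass without array 1 (adjusted p 0.17) or array 2 (adjusted p 0.09). Phyhip (-2.52 ± 0.53), Aamdc (-2.18 ± 0.52), Apod (-1.96 ± 0.48), a lipocalin, Mgat4f (-1.43 ± 0.38), Casq2 (-1.41 ± 0.32), a calcium store protein of heart muscle, Polr2g (-1.36 ± 0.31), a subunit of RNA polymerase II, and Ccdc113 (-1.34 ± 0.34) completed the 12 together with Igfbp3. Their adjusted p ran from 0.011 to 0.049. Phyhip had -1.35 without array 1 (adjusted p 0.27), Apod -0.99 without array 4 (0.3) and Polr2g -0.88 without array 3 (0.15), none of which passed. Mgat4f, Casq2 and Ccdc113 also lost their calls without array 2 (adjusted p 0.29, 0.2 and 0.23). Tested singly, neither probe of Ccdc113 passed (adjusted p 0.29 and 0.11). Its value on array 2 came from a single probe, which was 0.084 on array 3, so the shared sign rests on averaging.

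The same pair of lines could also be compared through other arrays. The indirect value took ZFCUMNT minus #4 (B6) through HM-1, an ES line used for gene targeting, and through B6NT, and rested on 16 arrays outside the 4. Of 14551 features tested, 8 passed (0.055%), 4 positive and 4 negative, and 2 of them had a gene symbol. Dppa5a had an indirect value of 1.80 ± 0.20 (adjusted p 3.3e-07) beside the direct 2.04, with 1.61 ± 0.28 through HM-1 and 2.00 ± 0.28 through B6NT. Timp3 had an indirect value of -0.96 ± 0.19 (adjusted p 0.012) beside the direct -0.71. For Vim the indirect value was -0.61 ± 0.21, for Igfbp3 -0.84 ± 0.32 and for Hspb1 0.84 ± 0.21 (adjusted p 0.21), each with the direct sign and none past the threshold.

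For most other called genes the indirect value was near 0. Of the 52 called positive genes, 43 had an indirect value, with a median of 0.16 beside a direct median of 1.81. Spata2l, Hmbox1, Irx3, Mtfp1 and Apoe had none. Through HM-1 alone Spata2l had -0.195 ± 0.925, beside a direct 4.83, and Apoe had 0.75 ± 0.49. Mtfp1 had 1.29 ± 1.32 through B6NT alone, and Hmbox1 and Irx3 had no value by either route. The 25 called negative genes had an indirect median of -0.01 beside a direct median of -1.34. The indirect value was -0.03 ± 0.38 for Timeless, 0.56 ± 0.37 for Btf3, 0.54 ± 0.48 for Ogdh and 0.10 ± 0.25 for Ascl2. The direct values had been chosen for size, which the indirect values had not, so the medians are descriptions. A test of direct minus indirect called none of 13953 features by limma, with 1083 at an unadjusted p under 0.05, and its median SE was 0.58. The smallest adjusted p among the named genes in that test was 0.081 for Btf3 (-2.69 ± 0.52), followed by 0.088 for Ogdh (-3.14 ± 0.68). The list of pluripotency genes had an indirect median of 0.32, with 0.42 ± 0.22 for Pou5f1, 1.39 ± 0.35 for Sall1 (adjusted p 0.21) and 1.09 ± 0.42 for Utf1.

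**Figure D4:**
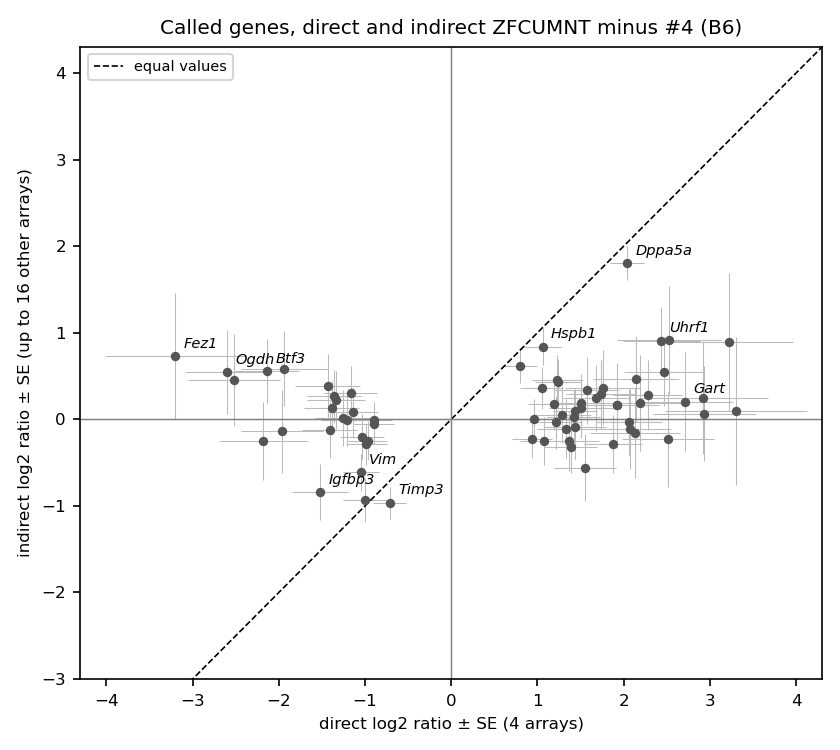
Direct log2 ratio (x axis, 4 arrays) and indirect log2 ratio (y axis, up to 16 other arrays) of the called genes that had both. Each SE is from the joint fit, with a spread estimated over all comparisons. The dashed line marks equal values. Dppa5a, Timp3 and Hspb1 lie near the line, as do the unlabelled Cd5 (-0.998 direct, -0.934 indirect) and Dhx16 (0.79 and 0.62). For Cd5 the indirect value averages routes that differed, -1.96 ± 0.36 through HM-1 and 0.09 ± 0.36 through B6NT. Vim (-1.05 and -0.61) and Igfbp3 (-1.52 and -0.84) have indirect values of the same sign but smaller size. Most other called genes have indirect values near 0.

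Line #4 (B6) was also set against HM-1, against B6NT and against B6PGA. These comparisons share line #4 (B6) with the one described here, on different arrays. Dppa5a was 2.04 ± 0.20 in ZFCUMNT, 2.12 ± 0.20 in B6NT and 1.82 ± 0.20 in B6PGA, each minus #4 (B6), and ZFCUMNT minus the mean of the other two was 0.07 ± 0.25 (adjusted p 0.96). Hspb1 was 1.06 ± 0.21, 1.06 ± 0.21 and 0.72 ± 0.21 in the same order. Klf4 was 0.60 ± 0.18, 1.01 ± 0.18 and 1.81 ± 0.18, so ZFCUMNT had the lowest value, and the test of the difference did not pass (-0.81 ± 0.22, adjusted p 0.081). Sall1 was 1.06 ± 0.41, 1.62 ± 0.35 and 2.80 ± 0.35, with a difference of -1.15 ± 0.48 (adjusted p 0.33). Timp3 was -0.71 ± 0.19, -1.15 ± 0.19 (adjusted p 0.00052) and -0.36 ± 0.19. Vim was -1.05 ± 0.21, -0.47 ± 0.21 and -0.13 ± 0.21. In B6PGA Timp3 did not pass, nor did Vim in B6NT or B6PGA. Line #4 (B6) minus HM-1 was -1.405 for Dppa5a, -0.82 for Klf4, -1.78 for Sall1 and 1.04 for Vim, all of which passed. Timp3 (0.76) and Hspb1 (-0.135) did not pass there. For Dppa5a, ZFCUMNT minus B6NT was -0.12 and ZFCUMNT minus HM-1 was 0.20, and neither passed.

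The difference from B6NT and B6PGA passed for 74 of 14179 features (0.522%), 50 positive and 24 negative. With array medians subtracted it passed for 71, 38 positive and 33 negative. Lefty2 had the smallest adjusted p among the named genes. Its value was -0.19 ± 0.25 in ZFCUMNT, 2.25 ± 0.25 in B6NT and 1.74 ± 0.24 in B6PGA, a difference of -2.19 ± 0.30 (adjusted p 3.4e-05). On arrays that set ZFCUMNT against other lines, Lefty2 was -2.65 ± 0.25 relative to B6NT (adjusted p 1.7e-09) and -2.51 ± 0.25 relative to HM-1 (adjusted p 4.3e-09). Relative to HM-1 NT it was -0.42 ± 0.24 and relative to PDCUMNT -0.24 ± 0.24, neither of which passed.

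Timeless (difference 2.70 ± 0.47, adjusted p 0.0027), Uhrf1 (2.57 ± 0.52, adjusted p 0.02) and Gart (2.80 ± 0.69, adjusted p 0.048) had more positive values against #4 (B6) than the mean of B6NT and B6PGA. Btf3 (-2.79 ± 0.45, adjusted p 0.0013), Ogdh (-2.65 ± 0.59, adjusted p 0.029) and Prnp (-1.58 ± 0.39, adjusted p 0.047) had more negative values. On the arrays that set ZFCUMNT directly against B6NT these differences did not pass. There ZFCUMNT minus B6NT was -0.32 ± 0.38 for Timeless and 0.59 ± 0.37 for Btf3, both of the opposite sign. It was 0.78 ± 0.39 for Uhrf1, 0.64 ± 0.55 for Gart, 0.24 ± 0.49 for Ogdh and 0.03 ± 0.32 for Prnp, and none of the 6 genes passed (adjusted p 0.94 or more). Relative to HM-1 NT, Btf3 was 1.001 ± 0.37 in ZFCUMNT (adjusted p 0.34). Tcf3, a transcription factor of the basic helix-loop-helix class, had a difference of -2.39 ± 0.43 (adjusted p 0.0045), with a direct value of -1.29 that did not pass (adjusted p 0.063). Nob1, which matures the small ribosomal subunit (2.83 ± 0.58), Irx1, an Iroquois homeobox factor (2.44 ± 0.55), and Bcap31, a protein of the endoplasmic reticulum (-1.40 ± 0.33), completed the named genes, which are 11 of the 35 genes with a symbol that passed. The direct values of Nob1 (1.54, adjusted p 0.11) and Bcap31 (-0.625, adjusted p 0.27) did not pass. In B6PGA minus #4 (B6), Tcf3 had 1.81 ± 0.355 and passed (adjusted p 0.0033). Against B6NT directly, ZFCUMNT had -0.05 ± 0.42 for Nob1, 0.52 ± 0.43 for Irx1 and -0.53 ± 0.27 for Bcap31. None of these passed against B6NT, and Tcf3 was not tested there. The count of 74 was 17 with arrays scaled to equal spread, 11 with array weights and 1 on the arrays of the contrast alone. It was 26 without array 1, 29 without array 2, 170 without array 3 and 181 without array 4.

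**Figure D5:**
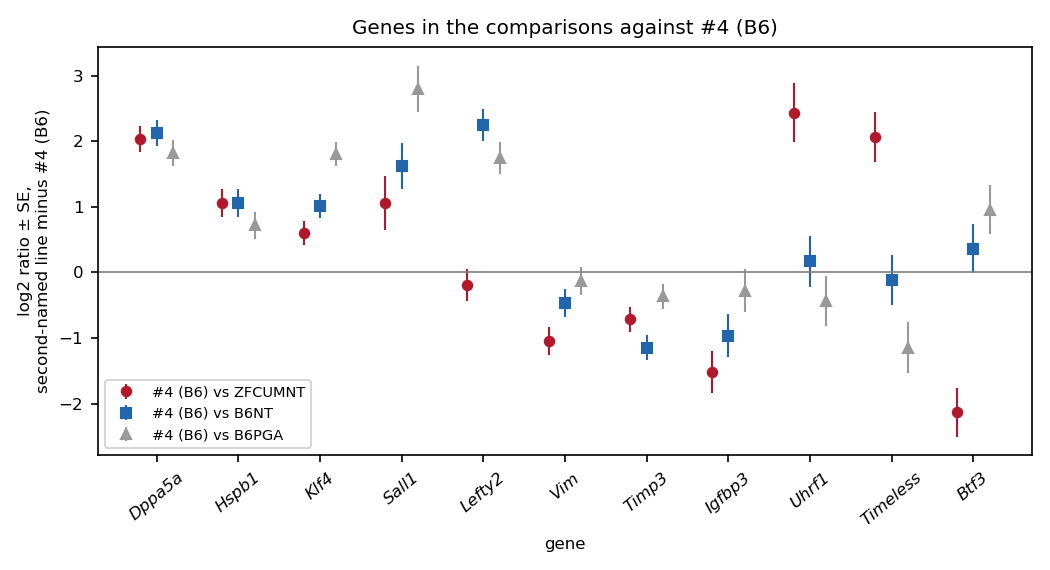
Fitted log2 ratios with SE (y axis) of 11 genes (x axis) in the comparisons of ZFCUMNT, B6NT and B6PGA against #4 (B6), second-named line minus #4 (B6). Dppa5a is near 2 in all 3 comparisons, whereas Lefty2 is -0.19 in ZFCUMNT and 2.25 and 1.74 in the other lines.

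Of the 153 calls 76 were unnamed probes, and of the 15716 features tested 8424 were genes with a symbol. The share called was 0.914% of these genes and 0.974% of all features, so unnamed probes were not called much more often. The probe listed as 2273 had -1.55, -2.05, -1.55 and -2.47 on arrays 1 to 4, within 1 log2 unit of each other, with a direct value of -1.90 ± 0.23 (adjusted p 1.2e-06) and an indirect value of -1.76 ± 0.23 (adjusted p 8.1e-06). The probe listed as 1462 had 2.23, 1.61, 0.61 and 1.20, with a direct value of 1.41 ± 0.19 (adjusted p 2.1e-05) and an indirect value of 1.29 ± 0.19 (adjusted p 2e-04). Probe 1746 had 2.56, 2.96, 3.43 and 4.18 (3.28 ± 0.49, adjusted p 9e-05), with an indirect value of 2.51 ± 0.49 (adjusted p 0.012). These 3 are named because they passed both directly and indirectly. The other 5 of the 8 unnamed probes with the smallest p and 1 sign on every measured array, 1964, 13868, 1680, 2089 and 18361, also passed directly, and their indirect values did not pass (adjusted p 0.21, 1, 1, 0.37 and 1). No gene is listed for the 8 probes in the annotation used here.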

How the data were processed

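The values were deposited by the authors as log2 ratios of the 2 channels for 20794 probes on 52 arrays; per the labels, 20 µg of total RNA per line was labelled indirectly with Cy3 or Cy5. The log base was read from the values (repeated values 1 apart). Scanner, background correction, normalization and hybridisation dates are not given in the sources used here. The constant top value of each array, above 12, was read as a placeholder and treated as not measured. An offset per array, its top value minus the log2 of 100000, was subtracted before looking for repeated values (-0.587 to 0.734 on the 4 arrays). After that, 2.02% to 3.51% of values stood at log2 ratios of whole numbers from 1 to 4. At the same ratios shifted by 0.2 stood 0.654% to 0.860%. Symbols came from the platform annotation (12771 probes with 1 symbol, 8023 with none), and were equal to those of the RefSeq gene table through Entrez identifiers. Probes of a gene were averaged, which gave 9030 genes and 17053 features.

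A joint fit of all 52 arrays used limma 3.58.1 (R 4.3.3; lmFit, then eBayes). Each comparison had a coefficient and each feature a dye term, and the spread of a feature was estimated over all comparisons. Benjamini-Hochberg adjustment of p-values ran over all features of a test, with a threshold of 0.05. Errors are standard errors of the fit. Fits were tested on simulated data in which the noise of a feature had the same spread on every array. The simulation therefore did not cover the unequal spread of these arrays. Named genes were the 12 most positive and 12 most negative called genes with the same sign on every measured array, called members of 21 gene lists, 25 pluripotency and methylation genes always, and, for the other tests, up to 5 called genes in each direction. Lefty2 is named among the 25. The members and lists were chosen with earlier results of these data known. Alternatives covered the top values, centring, scaling, array weights, dye handling, probe averaging, measured arrays required, the samples in the fit, the replicate block and leaving out arrays. The number of arrays limits the precision.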

Additional observations from a re-analysis of the deposited data

Results flagged for a closer look

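In 5 of 44 named genes measured on 4 arrays, 1 array stood apart from the other 3, with a gap of over 0.829 of the gene's range, which chance gives in about 5% of such groups. Atp5md had 6.19 on array 1, Cox6c had 3.74 on array 1 and Ogdh had -6.57 on array 2, and these 3 genes were called. Klf4 had -0.011 on array 4, below its other arrays, and Fgf4 had 2.25 on array 4, above its other arrays, and neither was called.

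For 35 genes with a symbol the direct value in ZFCUMNT differed from the mean of B6NT and B6PGA, each relative to #4 (B6), by limma's test of that difference, and 11 of them are named by rule. It was more positive in ZFCUMNT for Nob1 (2.83), Gart (2.80), Timeless (2.70), Uhrf1 (2.57) and Irx1 (2.44). It was more negative for Btf3 (-2.79), Ogdh (-2.65), Tcf3 (-2.39), Lefty2 (-2.19), Prnp (-1.58) and Bcap31 (-1.40). These differences also draw on the other lines. Relative to #4 (B6), B6NT and B6PGA had -0.755 and -1.81 for Nob1 and -0.12 and -1.15 for Timeless. The values were -0.19 and -1.17 for Irx1, -0.07 and -0.095 for Gart and 0.17 and -0.44 for Uhrf1. For Btf3 the values were 0.36 and 0.96, for Tcf3 0.39 and 1.81 and for Bcap31 0.73 and 0.82. For Ogdh they were 0.31 and -0.21, and for Prnp 0.20 and 0.18.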

How the results depend on the processing

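With 4 arrays of unequal spread, counts of calls moved with the settings. The direct count of 153 became 240 with top values kept, 27 with arrays scaled to equal spread, 44 with array weights (22 positive, 22 negative; weights 0.342, 0.475, 1.24 and 0.992 for arrays 1 to 4), 92 with no dye term, 59 with 1 effect per line (36 positive, 23 negative) and 836 with ratios not turned (770 positive). Fitted on the 4 arrays alone it was 0, with 1784 features at an unadjusted p under 0.05. It ran from 43 to 403 without 1 array. In alternatives chosen after seeing the data, it was 1137 on arrays 1 and 2 alone and 47 on arrays 3 and 4 alone. Centring, moderation with a trend, probes tested singly and other requirements on measured arrays gave 142 to 221. The indirect count of 8 became 32 (scaled), 35 (weights) and 3 (own arrays only). Direct minus indirect, reported as 0, gave 1 (centred), 5 (weights), 55 (not turned), 2 (own arrays only) and 0 to 25 without 1 array. The difference from B6NT and B6PGA, 74, became 17 (scaled), 11 (weights), 28 (no dye term), 1 (own arrays only) and 26 to 181 without 1 array. With 1 effect per line the indirect tests have no value of their own.

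Dppa5a passed in 17 of 19 alternatives, the exceptions being ratios not turned (0.89) and the 4 arrays alone (2.04, adjusted p 0.4). Signs turned for Ddit4 with top values kept (-2.09), for Cox6b1 (-0.03) and Uqcr11 (-0.23) on arrays 3 and 4 alone, and with ratios not turned for Mtfp1 (-0.89), Trmt2b (-1.46), Uhrf1 (-0.75), Fez1 (0.084), Apod (0.74), Polr2g (0.38), Vim (0.26), Timp3 (0.31) and Dppa4 (1.07). Scaling kept 9 and weights 11 of the 38 named calls, and the cause was not tested. Of 19 named genes not called, Pou5f1, Klf4 and Sall1 passed with 1 effect per line, Klf4 also without array 4 and Esrrb with ratios not turned (1.91) and on arrays 1 and 2 alone. Genes not called took the other sign, still uncalled, in 27 further values, among them Dnmt3l on arrays 1 and 2 alone (-0.84) and Rif1 on arrays 3 and 4 alone (-0.22).

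Across comparisons, the median residual correlation of arrays with the same number was -0.033. It was -0.031 for the other number of the same dye orientation. These medians pool comparisons with and without a shared line, so whether the array numbers pair the samples could not be decided. With the number as a replicate block the direct count was 134, and 7 of the 38 named calls were lost, Trmt2b, Fez1, Mgat4f, Timp3, Ldha, Rpl12 and Uqcr11. The block gave 8, 0 and 54 in the other 3 tests.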
